A study of Danio rerio with 8 samples.

Results

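The genes described here are those named for the proteins of the mitochondrial ribosome. All but mrps36, whose product in mammals belongs to another complex, encode proteins of its subunits. They were taken as every gene whose symbol begins with mrpl or mrps followed by a digit, which gave 75 of the 25725 genes in the files, 47 named mrpl and 28 named mrps. RNA was sequenced from 8 samples of Danio rerio (zebrafish) larvae at 5 days postfertilization, with the tissue given as heart. The 4 control samples (controls 1 to 4) had been kept in the solvent DMSO and the 4 TCDD samples in TCDD (2,3,7,8-tetrachlorodibenzo-p-dioxin, which binds and activates the aryl hydrocarbon receptor, AHR), both from 2 hours postfertilization. The labels state neither the strain nor the dose of TCDD, nor how many larvae made up a sample or whether samples share a clutch. The p values therefore cover the spread between these samples alone, and that spread may be technical. The small-subunit gene mrps12 is listed under the clone name si:dkey-17e16.10 (NCBI gene 793878), which the rule does not take, and it is described with the other genes of the pathway.

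Mitochondria keep a small genome whose messenger RNAs encode core subunits of the respiratory chain, and they translate these on a ribosome of their own. Its ribosomal RNAs come from mitochondrial DNA, whereas all of its proteins are encoded in the nucleus, made in the cytosol and imported. The large subunit (mrpl genes) holds the peptidyl transferase centre and the exit tunnel, and the small subunit (mrps genes) holds the decoding centre. Some of the proteins have bacterial counterparts and others are found only in mitochondria. Heart muscle is rich in mitochondria, and inherited defects of several of these proteins cause cardiomyopathy in humans.

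Library totals ran from 14048563 to 15183023 estimated counts, and the members had 51 to 1218 counts per library, far above the 3 counts taken as the floor of detection. The AHR target cyp1a, a check of exposure, was at 101 to 164 CPM (counts scaled to a common library size adjusted by TMM) in the controls and 6173 to 9745 CPM with TCDD (edgeR adjusted p = 6.0e-07). All 7 cardiomyocyte markers were detected, with a summed level of 1277 to 1589 CPM of library size in the controls and 885 to 1345 CPM with TCDD, but 5 liver markers summed to 24739 to 38637 and 28209.5 to 33421 CPM, and 5 skin markers to 9650 to 11926 and 7971 to 10974 CPM. By these markers the samples held tissue other than heart, and the members are expressed wherever there are mitochondria. Control 1 stood apart from the other libraries, with a TMM factor of 0.824 against 0.971 to 1.09 in the rest. It held the highest level of 26.0% and the lowest level of 22.3% of all tested genes. In such bulk samples fewer cells of a type and less RNA per cell cannot be told apart.

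Transcripts of the mitochondrial ribosomal proteins stood slightly lower in the TCDD libraries than in the controls for nearly every gene in TMM-scaled counts. In TPM they did not, but there their median log2 fold change was 0.05, against 0.25 for all genes tested. Few of the differences in TMM-scaled counts passed the threshold after adjustment over all tested genes. All 75 genes had enough counts to be tested. In edgeR's quasi-likelihood test, with p values adjusted by Benjamini-Hochberg over the 20522 genes tested, 3 fell (mrpl41, mrps10 and mrps6), none rose and 72 did not pass the threshold of 0.05. The 3 are 4% of the members, against 2.73% of all tested genes called lower, so that the share of calls was near the background. Of all tested genes 2.99% were called higher, against 0 of the members. DESeq2 called 0 members higher as well, but the share of all tested genes it called higher was not computed. At an adjusted p under 0.01 no member was lower, against 0.663% of all tested genes, and under 0.1 there were 7 lower (mrpl4, mrpl20, mrpl41, mrps6, mrps10, mrps24 and mrps27), against 5.24%. At an unadjusted p under 0.05, 25 members were lower and 0 higher, 33.3% of the members against 11.7% of all tested genes lower at that p.

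The median log2 fold change of the 75 members was -0.29, a change in level of -18.4%, against 0.00 for all tested genes. Fitted values were below 0 for 72 of the 75 genes, against 49.99% of all tested genes. The members are mostly short, and short genes were more often below 0. Of tested genes 82.8% were below 0 under 400 bases and 65.3% from 900 to 1100 bases. On the TPM scale the members' values were below 0 for 29 and above 0 for 46, against 17.0% of all genes tested there below 0. The interquartile range of the members was -0.38 to -0.19, and that of all tested genes -0.22 to 0.19. The members' extremes were -0.75 for mrpl41 and 0.10 for mrpl19. Standard errors of single members ran from 0.10 to 0.23 on the same scale.

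**Figure D1:**
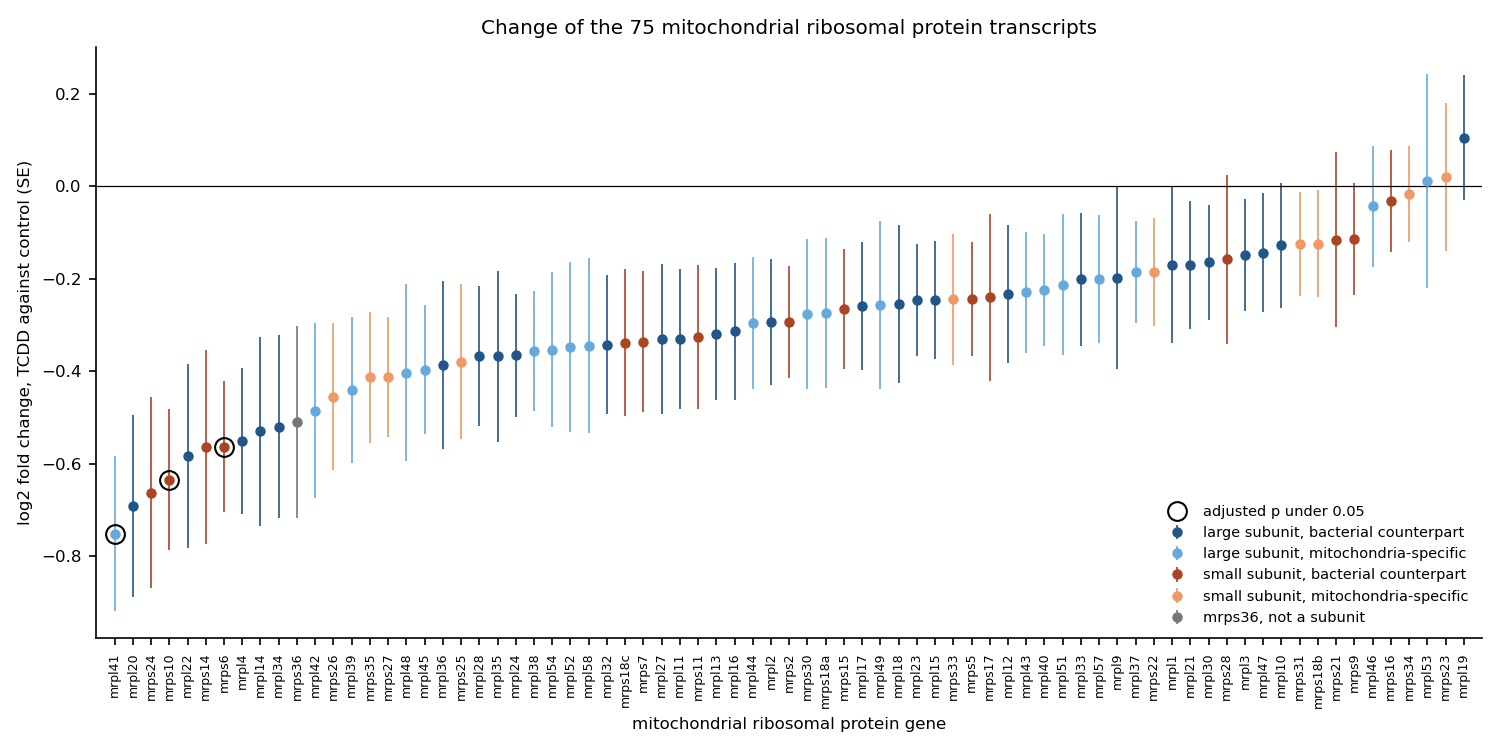
Log2 fold change of each of the 75 genes, TCDD against control (y axis), in rising order, with bars of 1 SE from edgeR; colours give the subunit and open rings the genes with an adjusted p under 0.05. The values run from -0.75 for mrpl41 to 0.10 for mrpl19, 72 of 75 lie below 0 (29 of 75 on the TPM scale, where 17.0% of all genes do), and only mrpl41, mrps10 and mrps6 carry a ring.

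The largest fall was that of mrpl41 (NCBI gene 553805), a large-subunit protein found only in mitochondria. It was at 27.6, 14.8, 21.7 and 22.4 CPM in controls 1 to 4 and 13.8, 11.6, 13.2 and 12.7 CPM in TCDD 1 to 4. All 4 TCDD libraries lay below all 4 controls, with control 2 nearest to them. The change was -0.75 ± 0.17 on the log2 scale (adjusted p = 0.0241). Its call was lost without control 3 (adjusted p = 0.0728), control 4 (0.0553), TCDD 1 (0.0534), TCDD 2 (0.0732) or TCDD 3 (0.0563).

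The gene mrps10 (NCBI gene 565937) encodes a small-subunit protein of the head region with a bacterial counterpart. It was at 45.3, 25.2, 34.7 and 34.99 CPM in controls 1 to 4 and 22.3, 23.6, 22.7 and 21.7 CPM in TCDD 1 to 4. The groups did not overlap, and control 1 stood highest. The log2 fold change was -0.63 ± 0.15 (adjusted p = 0.0332), and the call was kept only without control 1 or control 2. Without any other single library the adjusted p ran from 0.0643 to 0.0913.

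The third, mrps6 (NCBI gene 751746), encodes a protein of the small subunit that also has a bacterial counterpart. It was at 19.5, 12.6, 15.9 and 14.9 CPM in controls 1 to 4 and 10.8, 10.8, 11.004 and 9.91 CPM in TCDD 1 to 4. Here too the groups did not overlap, and the 4 TCDD libraries spanned about 1 CPM. The log2 fold change was -0.56 ± 0.14 (adjusted p = 0.0387), a call kept without control 2 and lost without any other single library (adjusted p = 0.0604 to 0.108).

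In TMM-scaled CPM the groups did not overlap for 7 members, all lower with TCDD: mrpl28, mrpl34, mrpl41, mrpl45, mrps6, mrps10 and mrps27. That is 9.33% of the members, against 6.35% of all tested genes without overlap in that direction. No member lay wholly higher with TCDD, which was so for 7.6% of all tested genes. The counts without overlap by library size were not computed and may differ. Among the 7, chosen here after their values were seen, the large-subunit gene mrpl28 was at 81.96, 49.6, 59.7 and 50.4 CPM in controls 1 to 4 and 47.3, 49.3, 45.95 and 44.6 CPM in TCDD 1 to 4. Its highest TCDD library lay just under control 2 (log2 fold change -0.37 ± 0.15, adjusted p = 0.180). The gene mrpl34, also of the large subunit, was at 44.98, 22.7, 32.2 and 22.7 CPM in controls 1 to 4 and 22.3, 22.7, 20.5 and 19.9 CPM in TCDD 1 to 4 (-0.52 ± 0.20, adjusted p = 0.153). Its groups were barely apart, with control 4 at 22.697 CPM and TCDD 2 at 22.657 CPM. The small-subunit gene mrps27, whose product is specific to mitochondria, was at 45.3, 28.98, 39.6 and 35.5 CPM in controls 1 to 4 and 27.8, 28.3, 28.2 and 27.9 CPM in TCDD 1 to 4. Its difference of -0.41 ± 0.13 missed the threshold (adjusted p = 0.0874) and passed it with DESeq2 (adjusted p = 0.0495).

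The members' order over the libraries was much the same from gene to gene. Control 1 had the highest level of all 8 libraries for 72 of the 75 members, against 26.0% of all tested genes. It had the lowest for 0 members, against 22.3%. TCDD 3 had the lowest for 29 members, against 9.50% of all tested genes, and TCDD 4 for 21, against 17.2%. Relative to each gene's mean over the 8 libraries, the median member stood at 0.52 (log2) in control 1, -0.17 in control 2, 0.17 in control 3 and 0.04 in control 4. The same median was -0.08, -0.04, -0.22 and -0.19 in TCDD 1 to 4. Control 2 thus lay within the range of the TCDD libraries, between TCDD 1 and TCDD 4, while the other 3 controls lay above it. For 65 of the 75 members control 2 was at or below the highest TCDD library. The share of all tested genes for which this holds was not computed, so the 65 are a description only. For 41 members controls 1, 3 and 4 were all above all TCDD libraries, against 12.3% of all tested genes. This count leaves out control 2 after its values were seen and is a description only.

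**Figure D2:**
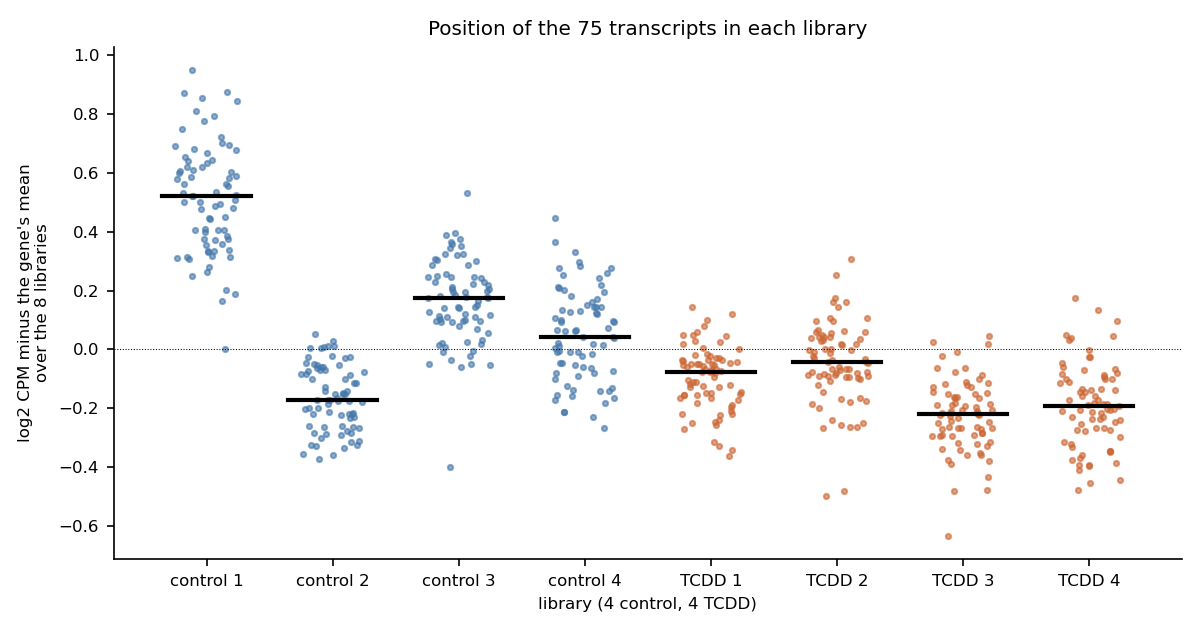
Level of each of the 75 transcripts in each library, as log2 CPM minus that gene's mean over the 8 libraries (y axis); points are genes and black bars medians. The median is 0.52 in control 1 and -0.17 in control 2, which lies among the TCDD medians of -0.22 to -0.04.

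The number of calls moved with the libraries left out. Without control 2, 19 of 75 members fell (25.3%), against 5.66% of all tested genes. These were mrpl41, mrps6, mrps10, mrpl4, mrpl11, mrpl13, mrpl20, mrpl22, mrpl24, mrpl38, mrpl39, mrpl42, mrpl44, mrps2, mrps14, mrps24, mrps26, mrps27 and mrps36. Without control 1, 2 fell (mrpl41 and mrps10; background 2.03%), and the median log2 fold change was -0.16. Without TCDD 4 only mrpl41 fell (background 1.8%). Without control 3, control 4, TCDD 1, TCDD 2 or TCDD 3 no member was called, where 1.1%, 2.3%, 1.41%, 1.37% and 1.72% of all tested genes were called lower. Nor was any called without both control 1 and TCDD 2 (background 1.35%), where the median log2 fold change was -0.18. DESeq2 called 7 members lower (mrpl4, mrpl20, mrpl41, mrps6, mrps10, mrps24 and mrps27), 9.33% against 5.2% of all tested genes, and limma-voom called mrpl41 alone, 1.33% against 2.37%. With library size in place of TMM factors mrpl41 and mrps10 were called, 2.67% against 1.81%.

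Summed over the 75 genes, the members held 2280, 1824, 2131 and 1960 CPM of library size in controls 1 to 4 and 1851, 1894, 1723 and 1852 in TCDD 1 to 4. The means were 2049 ± 199 and 1830 ± 74.1 (SD, n = 4 each), and the groups overlapped through control 2. On TMM-scaled sizes the sums were 2765, 1727, 2195 and 2005 CPM against 1791, 1848, 1664 and 1694 CPM, which widened the spread of the controls (SD 439 against 85.3 with TCDD). In deposited TPM, which divides each count by transcript length before scaling, the sums were 3251 ± 123 TPM in the controls and 3261 ± 110 TPM with TCDD. The summed level was thus lower with TCDD in CPM and not in TPM. These scales differ in their baseline. The median log2 fold change of all tested genes was 0.00 with TMM, 0.13 by library size and 0.25 on log2(TPM + 1).

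The members are short transcripts. Their median length, as the deposited counts and FPKM values imply it, was 657 bases, against 2034 bases for all tested genes. The implied lengths may be effective lengths, that is, shorter than the transcripts themselves. The lowest among the members was 151 bases, for mrpl53. In these libraries short transcripts as a class stood lower with TCDD. Genes under 1000 bases held 34.0, 23.7, 28.8 and 29.6% of the counts in controls 1 to 4 and 24.99, 24.3, 23.5 and 23.7% in TCDD 1 to 4. The share was highest in control 1, and in control 2 it lay among the TCDD libraries, as did the members' level. The part of this in the members' values was not tested. Among tested genes under 400 bases the median log2 fold change was -0.37 for all 442 genes and -0.34 for the 13 members. From 400 to 500 bases it was -0.28 for 250 genes and -0.37 for 12 members, and from 500 to 700 bases -0.26 for 751 genes and -0.26 for 17 members. From 700 to 900 bases it was -0.16 for 1046 genes and -0.23 for 15 members. From 900 to 1100 bases the values were -0.13 for 1286 genes and -0.29 for 11 members. Above 1100 bases they were 0.03 for 16747 genes and -0.24 for 7 members. That class is not matched in length, since the longest member had 1969 bases. In bins of all tested genes centred from 1112 to 1467 bases the medians ran from -0.11 to -0.05. In the classes, shortest first, 82.8, 78, 77.0, 68.8, 65.3 and 45.1% of tested genes were below 0. Of the members it was 12 of 13, 12 of 12, 17 of 17, 14 of 15, 10 of 11 and 7 of 7.

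**Figure D3:**
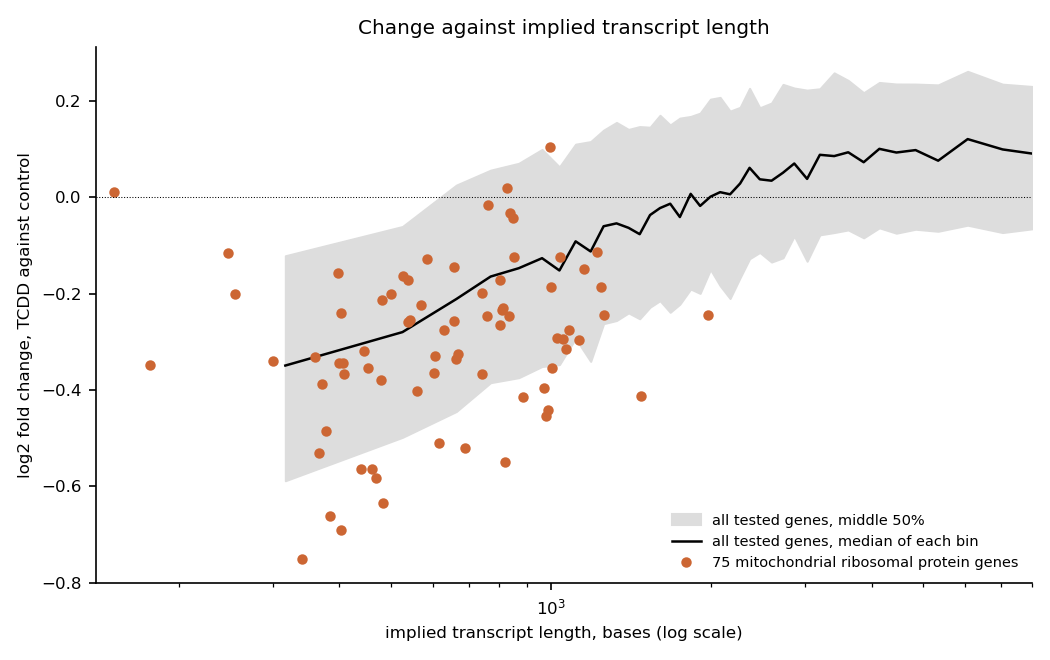
Log2 fold change, TCDD against control (y axis), against implied transcript length in bases (x axis, log scale); orange points are the 75 members, the line is the median and the grey band the interquartile range of all tested genes in 40 bins of equal size. All tested genes under 400 bases have a median of -0.37 and the 13 members there one of -0.34.

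The length offsets take out of each library a smooth, on length, of each gene's deviation from its mean level over the 8 libraries. The smooth was fitted over all tested genes, members included. A change with TCDD that short genes share would be taken out as well. With the offsets the median log2 fold change of the members was -0.06, against 0.00 for all tested genes. Values were then below 0 for 49 members and above 0 for 26, against 49.8% of all tested genes below 0. With the offsets 0 members were called, where 2.51% of all tested genes were called lower. The log2 fold change of mrpl41 became -0.38 ± 0.13 (adjusted p = 0.114), that of mrps10 -0.33 ± 0.13 (adjusted p = 0.161) and that of mrps6 -0.24 ± 0.12 (adjusted p = 0.299). On the log2(TPM + 1) scale, fitted with limma, the members' median was 0.05 while that of all 18087 genes tested was 0.25. The members' median thus stood 0.21 below that of all genes. No member was called, and the share of all genes called lower on that scale was not computed. With library size alone the members' median was -0.15 and that of all tested genes 0.13, a difference of 0.28. Across the 75 members Spearman's rho between log2 fold change and implied length was 0.27, and across the 20522 tested genes 0.29. These are descriptions over genes of the same libraries. After the offsets rho among the members was -0.29, and their median log2 fold change was 0.03 under 400 bases, -0.18 from 900 to 1100 bases and -0.16 above.

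Marker sums of erythrocytes and cartilage stood lower in every TCDD library than in every control. All 5 cartilage markers were called lower (median log2 fold change -0.76), as was 1 of the 5 erythrocyte markers (median -0.53, all 5 below 0). The 5 erythrocyte markers, all detected, summed to 3893 to 5950 CPM of library size in the controls and 2606 to 3766 with TCDD, with control 1 highest and control 2 lowest of the controls. The 5 cartilage markers summed to 5735 to 8089 and 4308 to 5091 CPM, with control 1 lowest and control 2 highest of the controls. The members' median stood the other way from cartilage, with control 1 highest and control 2 lowest of the controls. The cardiomyocyte and liver sums had the same order as the members. For skin, exocrine pancreas and intestine control 2 was lowest of the controls too, but control 3 or control 4 was highest. The intestine markers summed to 3509 to 4147 CPM in the controls and 2639 to 3513 with TCDD, so that the groups barely overlapped, and 2 of the 5 were called lower. All 7 cardiomyocyte markers had values below 0, and 2 were called lower. The sums of 5 skeletal muscle markers ran from 5195 to 6839 CPM in the controls and from 4454 to 5922 with TCDD. There control 1 was the highest and control 2 the lowest of the controls. All 5 skeletal muscle and all 5 exocrine pancreas markers were below 0, with none called. Below 0 were 3 of 5 liver and 4 of 5 skin markers, and 1 of each set was called higher. The part of these in the members' values was not tested.

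Of the 49 members that belong to the large subunit, mrpl41 fell and 48 did not pass. The 29 with a bacterial counterpart had a median of -0.29 and the 20 specific to mitochondria one of -0.29. Among the 5 genes listed for the surroundings of the peptidyl transferase centre (mrpl2, mrpl3, mrpl4, mrpl16 and mrpl27), values ran from -0.55 to -0.15 and none passed. Of these mrpl4, named after its values were seen, was at 93.5, 50.1, 73.1 and 69.6 CPM in controls 1 to 4 and 52.5, 48.6, 46.1 and 48.2 CPM in TCDD 1 to 4. It overlapped between the groups through control 2 alone (log2 fold change -0.55 ± 0.16, adjusted p = 0.0644).

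The 8 genes of the exit tunnel, through which the new chain leaves toward the inner membrane, had a median of -0.33 (-0.58 to -0.14) and none passed. Among them mrpl22, which lines the tunnel, was at 23.6, 11.9, 19.1 and 18.9 CPM in controls 1 to 4 and 14.04, 13.9, 9.47 and 11.6 CPM in TCDD 1 to 4. Only control 2 was as low as the TCDD libraries (log2 fold change -0.58 ± 0.20, adjusted p = 0.114). The gene mrpl45, whose product in mammals ties the ribosome to the inner membrane, was at 35.8, 24.7, 33.6 and 24.7 CPM in controls 1 to 4 and 22.4, 24.3, 21.3 and 22.2 CPM in TCDD 1 to 4. Controls 2 and 4 were only just above the highest TCDD library (log2 fold change -0.40 ± 0.14, adjusted p = 0.124).

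The flexible stalk recruits translation factors to the large subunit, and its 5 genes had a median of -0.23 with none called. Of these mrpl12, whose human product also binds the mitochondrial RNA polymerase, was at 76.1, 44.6, 63.4 and 50.6 CPM in controls 1 to 4 and 47.7, 51.1, 49.9 and 50.9 CPM in TCDD 1 to 4. Control 2 was the lowest of the 8, and the groups overlapped (log2 fold change -0.23 ± 0.15, adjusted p = 0.388). At the stalk base mrpl10 had a log2 fold change of -0.13 ± 0.13 (adjusted p = 0.625), with 14.9 CPM in control 2 and 21.3 to 21.5 CPM in the other controls. It turned positive with library size alone (0.01). The value of mrpl11 was -0.33 ± 0.15 (adjusted p = 0.230). The central protuberance, which faces the small subunit, had a median of -0.26 over 5 genes and no call.

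Other large-subunit members are described next for their roles or their place near the threshold. The gene mrpl20, a protein that in bacteria is needed early in assembly of the large subunit, was at 54.2, 24.7, 44.7 and 37.01 CPM in controls 1 to 4 and 24.6, 22.2, 26.4 and 26.2 CPM in TCDD 1 to 4. Control 2 lay within the TCDD range, and the difference of -0.69 ± 0.20 just missed the threshold (adjusted p = 0.0632; 0.0173 with DESeq2). The peptidyl-tRNA hydrolase gene mrpl58, whose product can free stalled ribosomes, was at 6.27 ± 1.72 CPM in the controls and 4.92 ± 0.361 CPM with TCDD (-0.34 ± 0.19, adjusted p = 0.313). Proteins encoded by mrps18a and mrps30 sit in the large subunit despite their names, and their values were -0.27 ± 0.16 (adjusted p = 0.347) and -0.28 ± 0.16 (adjusted p = 0.346).

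Of the 25 members of the small subunit, mrps10 and mrps6 fell and 23 did not pass. The 15 with a bacterial counterpart had a median of -0.29, and the 10 specific to mitochondria one of -0.21. Among 6 genes of the decoding centre and the mRNA path the median was -0.33 and none passed. There mrps24, at the mRNA entry, was at 37.7, 16.8, 23.8 and 22.3 CPM in controls 1 to 4 and 15.4, 16.4, 17.4 and 14.3 CPM in TCDD 1 to 4. Control 2 was again inside the TCDD range (log2 fold change -0.66 ± 0.21, adjusted p = 0.0862), and DESeq2 gave an adjusted p of 0.0341. The paralogs mrps18b and mrps18c had log2 fold changes of -0.12 ± 0.12 (adjusted p = 0.573) and -0.34 ± 0.16 (adjusted p = 0.238). The value of mrps18b turned positive with library size alone (0.02). Counts of paralogs can be assigned to the wrong copy where they share reads.

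The gene mrps36 carries a ribosomal name, but its mammalian product is a subunit of the oxoglutarate dehydrogenase complex and not of the ribosome. It was at 97.3, 42.7, 63.2 and 56.8 CPM in controls 1 to 4 and 51.1, 47.3, 44.1 and 39.9 CPM in TCDD 1 to 4. Control 1 stood far above the rest and control 2 within the TCDD range (log2 fold change -0.51 ± 0.21, adjusted p = 0.178).

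Variants of 4 of the genes cause cardiomyopathy in humans, and none of the 4 passed here. The gene mrpl44, a relative of RNase III at the tunnel exit, was at 30.3, 19.1, 28.4 and 29.5 CPM in controls 1 to 4 and 21.5, 22.5, 20.7 and 22.6 CPM in TCDD 1 to 4. Control 2 was the lowest of all 8 libraries and the other controls the highest (log2 fold change -0.30 ± 0.14, adjusted p = 0.249). Without control 2 it was called (-0.43, adjusted p = 0.0253), in a fit that called 5.66% of all tested genes lower. Since that fit leaves out the lowest library of this gene, its call is a description only. The head protein gene mrps14 was at 20.2, 9.50, 11.7 and 13.4 CPM in controls 1 to 4 and 8.58, 11.02, 9.003 and 8.43 CPM in TCDD 1 to 4. Control 2 lay inside the TCDD range (log2 fold change -0.56 ± 0.21, adjusted p = 0.141). The gene mrps14 too was called in the fit without control 2, with the same limit. The values of mrpl3 were 33.9 ± 4.30 CPM in the controls and 30.6 ± 3.05 CPM with TCDD (-0.15 ± 0.12, adjusted p = 0.511) and those of mrps22 22.8 ± 2.88 CPM in the controls and 20.1 ± 1.18 CPM with TCDD (-0.19 ± 0.12, adjusted p = 0.381).

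**Figure D4:**
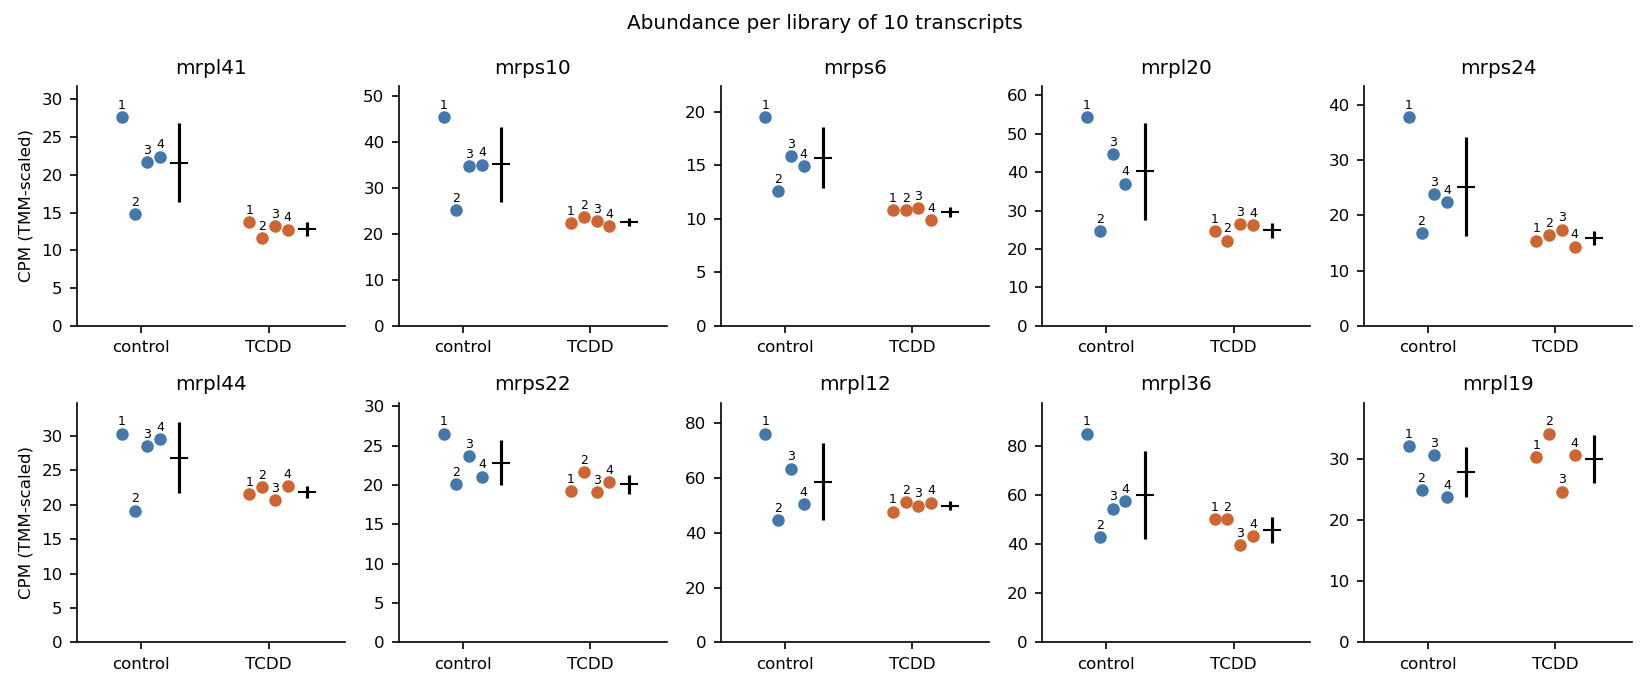
CPM on TMM-scaled library sizes (y axis, from 0) of 10 members in each library; points carry the replicate number, and the dash with its bar is the mean ± SD of 4 libraries. Control 1 is the highest control in each panel, and for mrpl41 the controls sit at 14.8 to 27.6 CPM and the TCDD libraries at 11.6 to 13.8 CPM.

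At the other end of the range 3 genes had fitted values above 0. The gene mrpl19, a protein at the interface of the subunits, was at 32.1, 24.9, 30.6 and 23.8 CPM in controls 1 to 4 and 30.3, 34.2, 24.7 and 30.7 CPM in TCDD 1 to 4. Both groups covered the same range (log2 fold change 0.10 ± 0.14, adjusted p = 0.701). The values of mrps23 and mrpl53, both specific to mitochondria, were 0.02 ± 0.16 (adjusted p = 0.962) and 0.01 ± 0.23 (adjusted p = 0.985), and each turned negative in several fits that left out 1 library, among them those without control 2, control 4 or TCDD 2. The nearest values below 0 were those of the small-subunit genes mrps34 (-0.02 ± 0.10, adjusted p = 0.946) and mrps16 (-0.03 ± 0.11, adjusted p = 0.899). Both turned positive with library size alone (0.12 and 0.10). With TCDD mrps34 was at 32.8, 32.5, 33.01 and 33.97 CPM, inside the control range of 28.9 to 38.2 CPM.

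Levels can be compared between genes only per length. Over the 8 libraries the members' mean TPM ran from 8.10 to 149, an 18.4-fold range for proteins that mostly occur once per ribosome, with a median of 40.4 and an interquartile range of 29.8 to 50.5 TPM. The highest were mrpl36 (151 ± 12.6 TPM in the controls and 147 ± 13.1 TPM with TCDD), mrpl57 (89.5 ± 5.12 TPM in the controls and 97.6 ± 12.7 TPM with TCDD) and mrps36 (97.8 ± 14.5 TPM in the controls and 88.3 ± 5.77 TPM with TCDD). The lowest were mrps33 (7.92 ± 0.982 TPM in the controls and 8.27 ± 0.935 TPM with TCDD), mrpl1 (12.6 ± 1.59 TPM in the controls and 14.01 ± 1.72 TPM with TCDD) and mrpl58 (14.5 ± 1.32 TPM in the controls and 14.5 ± 0.982 TPM with TCDD). In CPM, mrpl36, whose product is one of the smallest ribosomal proteins, was at 84.9, 42.9, 54.4 and 57.5 CPM in controls 1 to 4 and 50.1, 50.3, 39.5 and 43.4 CPM in TCDD 1 to 4. Control 1 stood far above the rest, and control 2 lay inside the TCDD range (log2 fold change -0.39 ± 0.18, adjusted p = 0.238). For very short transcripts TPM depends strongly on the length used, and the implied length of mrpl57 was 255 bases and that of mrps33 1969 bases. The order of the 75 levels was nearly the same in both groups (Spearman's rho 0.97 across genes, a description). The mean TPM per small-subunit gene over that per large-subunit gene was 0.748, 0.789, 0.722 and 0.746 in controls 1 to 4 and 0.729, 0.766, 0.773 and 0.748 in TCDD 1 to 4, which overlap.

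The members varied more among the controls than among the TCDD samples. Their median coefficient of variation was 22.0% in the controls (10.2 to 35.6%) and 7.86% with TCDD (0.782 to 17.8%), and it was larger in the controls for 73 of 75 genes. Over the 12106 tested genes in the same CPM range the medians were 14.8 and 10.9%, and 68.2% of them varied more in the controls. Without control 1 the members' median in the controls was 12.9%. The median of the 12106 genes without control 1 was not computed, so the 12.9% has no background beside it.

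Other genes of mitochondrial gene expression gave 1 lower call among 132 tested genes in 7 lists, against 2.73% of all tested genes called lower. The 6 proteins of the mitoribosome that carry other names (dap3, chchd1, aurkaip1, ptcd3, gadd45gip1 and mrps12) had a median of -0.27 with none called. There aurkaip1, of the small subunit, was at 49.8 ± 9.32 CPM in the controls and 37.6 ± 2.54 CPM with TCDD (-0.40 ± 0.13, adjusted p = 0.103), and the gene for the decoding-centre protein mrps12 at 48.9 ± 2.78 CPM in the controls and 41.99 ± 1.88 CPM with TCDD (-0.22 ± 0.09, adjusted p = 0.191). Assembly factors had a median of -0.17 over 24 genes, translation factors -0.18 over 15 and import genes -0.15 over 28, none called.

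The call was among 19 genes that charge mitochondrial tRNAs (median -0.18). It was zgc:153247 (NCBI gene 751732), which the RefSeq gene table names ears2, the mitochondrial glutamyl-tRNA synthetase. It was at 14.4, 7.41, 12.2 and 9.22 CPM in controls 1 to 4 and 6.01, 6.51, 6.14 and 5.73 CPM in TCDD 1 to 4. All TCDD libraries were below all controls (log2 fold change -0.82 ± 0.19, adjusted p = 0.0297), and with offsets for length the fall was still called at -0.75 ± 0.17 (adjusted p = 0.0258). On the log2(TPM + 1) scale it was not, at -0.41 ± 0.15 (adjusted p = 0.0906, limma). Its call was lost without control 3 (adjusted p = 0.102) and without any 1 of the TCDD libraries (0.0621 to 0.077).

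Genes that copy and process mitochondrial DNA and its transcripts had a median of -0.11 over 24 genes with none called. Among them the DNA-packaging transcription factor gene tfam was at 30.5 ± 3.29 CPM in the controls and 25.6 ± 0.693 CPM with TCDD (-0.25 ± 0.11, adjusted p = 0.198). Regulators known to drive nuclear genes for mitochondrial proteins had a median of 0.01 over 16 genes with none called. Of these nrf1 was at 35.2 ± 10.01 CPM in the controls and 42.3 ± 7.10 CPM with TCDD (0.27 ± 0.19, adjusted p = 0.431), gabpa at 27.2 ± 6.13 CPM in the controls and 29.5 ± 2.78 CPM with TCDD (0.12 ± 0.15, adjusted p = 0.695) and the coactivator gene ppargc1a at 10.8 ± 0.749 CPM in the controls and 10.6 ± 1.92 CPM with TCDD (-0.02 ± 0.15, adjusted p = 0.963). The value of gabpb1, which encodes the partner of the gabpa product, was -0.51 ± 0.16 (adjusted p = 0.099). That of mycb was -0.37 ± 0.15 (adjusted p = 0.168), whereas its paralog myca stood the other way at 0.21 ± 0.10 (adjusted p = 0.245). The genes named in the lists without a call were chosen after their values were seen.

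**Figure D5:**
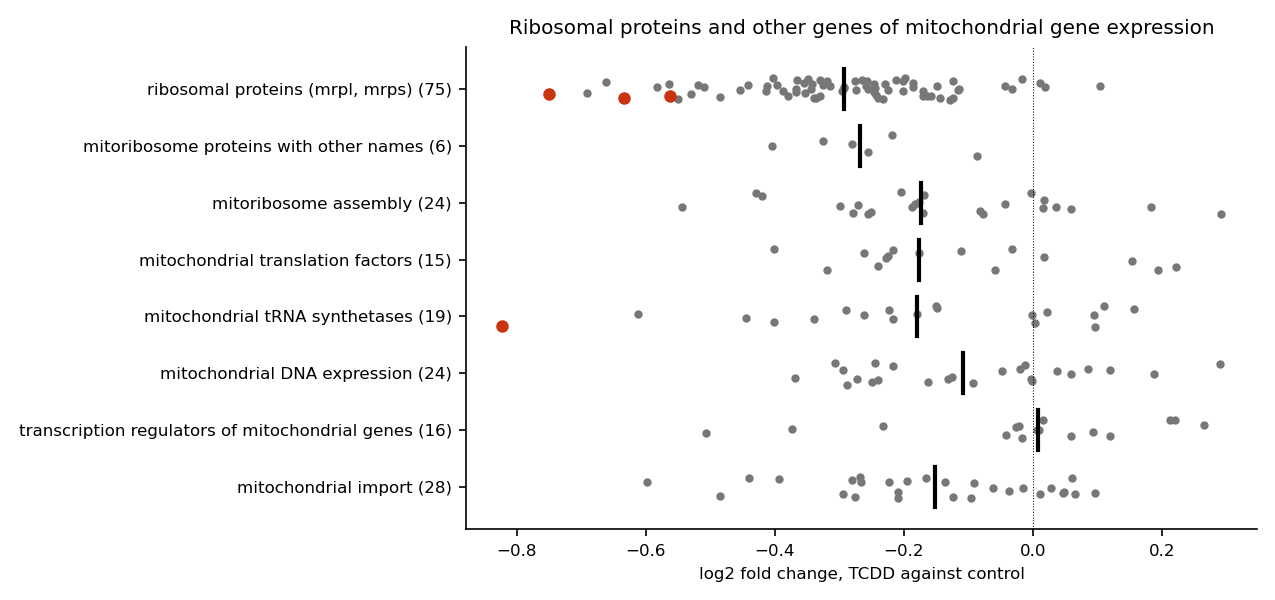
Log2 fold change, TCDD against control (x axis), of the 75 members and of 7 lists of other genes of mitochondrial gene expression (rows, with the number tested); points are genes, red where the adjusted p was under 0.05, and black bars are medians. The members' median is -0.29, and the medians of the 7 lists run from -0.27 to 0.01.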

How the data were processed

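The authors deposited 1 table per library with the estimated count, FPKM and TPM of each gene, made from aligned reads by a tool that no source names. Bowtie2 and the genome build GRCz11 are named in the submitters' processing notes, and RNA was taken up in Trizol and copied with a SMARTER mRNA-Seq kit, per the labels' protocols. No source used here states the annotation. The deposited counts, rounded to whole numbers, were fitted in edgeR 4.0.16 (R 4.3.3; filterByExpr, TMM factors, robust quasi-likelihood test) over the 20522 genes that passed the filter, with Benjamini-Hochberg adjustment and a threshold of 0.05; the biological coefficient of variation was 18.3%. Log2 fold changes are given ± SE and levels ± SD over n = 4 libraries per group. CPM uses TMM-scaled library sizes unless library size is named. A transcript's implied length is its count divided by its deposited FPKM and by the library total. It may be an effective length, since the tool is not named. The offsets for length came from a loess in each library (span 0.3). It smoothed log2 CPM minus the gene's mean over the 8 libraries on the log2 of that length. Deposited TPM was tested with limma 3.58.1 as log2(TPM + 1) in genes with a mean of at least 1 TPM. DESeq2 1.42.0 and limma-voom served as alternatives, as did other scaling factors and filters, a replicate block, leaving out each library, and leaving out control 1 and TCDD 2 together, which earlier results of these data had set apart.

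Totals of 14048563 to 15183023 counts make the floor of 3 counts equal to 0.198 to 0.214 CPM. It covers counting error only, since reads are not tied to single molecules. No pair of libraries in a group agreed within sampling noise: chi-square per degree of freedom was at least 9.53. The fit was tested on simulated data.

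The members and the other lists were chosen with earlier results of these data known. The text names, by rule, all members called up to 10 in each direction, the 5 highest and 5 lowest fold changes, a set of genes named for their roles or clinical interest, the 3 highest and 3 lowest mean TPM, and the called genes of the context lists. Others are said to be chosen after their values were seen. All 75 members matched the RefSeq gene table by gene ID. That table is of another assembly, so no coordinates are given, and no sequences were used here. The listed names mrm3 and rpusd3 matched no gene, and 1 of 17 listed regulators did not pass the filter.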

Additional observations from a re-analysis of the deposited data

Results flagged for a closer look

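In 5 of 64 groups of 4 libraries checked over the named genes, 1 library lay far from the other 3 by Dixon's criterion, where chance flags about 1 in 20 groups, or 3.2 here. All 5 were control groups, and control 1 or control 2 was the library that stood away. The level of mrpl10, of the stalk base, was 14.9 CPM in control 2 and 21.3 to 21.5 CPM in the other controls. That of mrpl44, at the tunnel exit, was 19.1 CPM in control 2 against 28.4 to 30.3 CPM. In control 1 the level of mrpl53 was 7.35 CPM, with 3.56 to 4.19 CPM in the other controls. That of mrps18c was 27.8 CPM in control 1 against 18.2 to 18.8 CPM, and that of mrps33 was 19.2 CPM against 14.95 to 15.5 CPM.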

How the results depend on the processing

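Against 3 members called, the count was 7 with DESeq2, 1 with limma-voom and 0 with offsets for length, where the median log2 fold change was -0.0566 in place of -0.29. It was also 0 without control 1 and TCDD 2 together, 0 to 19 with 1 library left out, 0 at an adjusted p under 0.01 and 7 under 0.1. The median ran from -0.39 to -0.16 with 1 library left out. Higher calls stayed at 0 in all of these. The share of all tested genes called higher was computed for the main fit alone. In the context lists the count of 1 became 3 with DESeq2, 0 with limma-voom and without both libraries, and 0 to 10 with 1 library left out. The 10 were without control 2. Of all tested genes, 2.73% were called lower in the main fit, 5.2% with DESeq2 and 2.37% with limma-voom. The share was 1.35% without both libraries and 5.66% without control 2. The log2 ratio of the summed level, -0.16 by library size, was -0.29 with TMM and 0.00470 in TPM.

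Of 600 values of 29 named members and 1 context gene under other settings, 514 kept direction and call, 38 lost the call, 10 gained it and 38 changed sign, in each case without a call. With library size alone mrpl10 was at 0.0116, mrps16 at 0.10, mrps18b at 0.0163 and mrps34 at 0.12. With offsets for length mrpl1 was at 0.0021, mrpl10 at 0.12, mrpl57 at 0.21, mrps16 at 0.12, mrps18b at 0.0341, mrps18c at 0.0487 and mrps34 at 0.17. On log2(TPM + 1) mrpl1 was at 0.14, mrpl3 at 0.16, mrpl10 at 0.19, mrpl11 at 0.0034, mrpl12 at 0.11, mrpl44 at 0.0372, mrpl57 at 0.12, mrps16 at 0.27, mrps18a at 0.0727, mrps18b at 0.19, mrps22 at 0.13, mrps30 at 0.0657, mrps33 at 0.0557 and mrps34 at 0.30. Upper quartile factors put mrpl53 at -0.0021, and leaving out both libraries put mrps34 at 0.0565. With 1 library left out mrpl53 ran from -0.11 to 0.28, mrps16 from -0.0788 to 0.0380, mrps23 from -0.0682 to 0.18 and mrps34 from -0.0841 to 0.0520. The cause of these changes was not tested.

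With the replicate number as a block, 4 members were called lower, mrpl20 (adjusted p = 0.0397) beside the 3, against 3.36% of all tested genes, and no named gene lost its call. Deviations of libraries of the same number, 1 to 4, had correlations of -0.259, -0.231, 0.104 and 0.310. Between libraries of different numbers they ran from -0.452 (control 4 with TCDD 2) to 0.538 (control 1 with TCDD 2). With 4 libraries per group these cannot show whether libraries of the same number share a clutch or batch. Every member had at least 51 counts in each library.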
